A study of Mus musculus with 2 samples.

Results

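The genes described here encode 10 proteins that make, reactivate or inactivate steroid hormones, or that carry cholesterol or electrons to the enzymes that do so. They are Star, Cyp11a1, Hsd3b1 and Cyp19a1 of synthesis, Hsd11b1, which reactivates glucocorticoids, Hsd11b2, Hsd17b11, Akr1c18 and Srd5a1 of steroid breakdown or conversion, and Por, an electron donor. The question was where their transcripts carry N6-methyladenosine (m6A), a methyl mark on adenosines inside mRNA, in the uterus of the pregnant mouse. A peak belonged to a gene when its summit lay inside the gene's RefSeq span (build mm10), introns included. By this rule, 11 of the 38366 peaks in the list fell in 5 of the 10 genes, and each of the 11 summits lay in 1 gene only.

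The data come from methylated RNA immunoprecipitation sequencing, in which RNA fragments bound by an anti-m6A antibody are sequenced beside RNA that was not immunoprecipitated, called the input. Total RNA was taken from the whole uterus of wild-type mice of the C57BL/6 strain. The immunoprecipitated (IP) group held 1 library, labelled as equal amounts of uterus from gestation day 4 and gestation day 8. The input group held 1 library with no antibody, and its label names no day and no pooling, so it is not known whether both came from the same RNA. Peak names in the list mention day 8 and not day 4. Neither the number of animals nor the presence or absence of embryos in the tissue is stated. There were no replicates, so each value describes this pair of libraries, no test between groups was possible, and the 2 days cannot be told apart.

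Fold enrichment is the authors' ratio of IP fragments to local background at the summit, where the background is derived from the scaled input. At 2851 peaks the background lies at a genome-wide value of 0.462. Over what width the input was averaged at other peaks is not stated. Over all 38366 peaks the median enrichment was 6.16-fold, with quartiles of 4.62 and 8.32. The number of IP fragments at each summit was recovered from the deposited values, with a median of 29 over all peaks against a background of 3.33. A range in parentheses after a fold carries the exact 95% Poisson bounds of the IP fragment count to the fold scale: 1 is added to the bound and to the background, as in the fold itself, and the background is taken as known. It covers counting error only. Sources used here do not give the library totals. Of 21787 protein-coding genes, 55.7% had a peak, and of the 14288 whose spans lie between the shortest and longest of the 10 genes (5.24 to 102.2 kb) 61.4% had one. The share here is 5 of 10, with an exact 95% binomial interval of 18.7% to 81.3% that holds both. So few genes cannot show whether the share is typical. Lack of a peak can mean no m6A, no transcript or too little coverage, and without expression values these cannot be told apart.

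Steroid hormones are made from cholesterol, which the StAR protein moves to the inner mitochondrial membrane. There Cyp11a1 cuts the side chain to give pregnenolone, and 3β-hydroxysteroid dehydrogenases turn pregnenolone into progesterone, the hormone that holds pregnancy. Aromatase, encoded by Cyp19a1, makes estrogens from androgens. In the pregnant mouse the ovary is the main source of progesterone, and enzymes inside the uterus set how much active steroid reaches receptors in its cells.

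Of the 4 synthesis genes, Cyp11a1 and Star carried peaks, and Hsd3b1 and Cyp19a1 did not. Cyp11a1, the side-chain cleavage enzyme (NCBI Gene 13070, chromosome 9, 57998024 to 58027031, plus strand), held 3 peaks. The first, from 58014978 to 58015177, had 71 IP fragments over a background of 9.26, a fold of 7.02 (5.50 to 8.82). The next, from 58021893 to 58022587, had 91 fragments over 13.6, a fold of 6.31 (5.09 to 7.73). The last, from 58026633 to 58026886, had 99 fragments over 47.6, a fold of 2.06 (1.68 to 2.50). The first 2 intervals overlap, and the last lies below both. Its background was at least as high as that of 99.7% of all peaks, and its summit lay 208 bases from the 3′ end of the span.

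The first Cyp11a1 summit lay 149 bases downstream of a transcript start that RefSeq lists inside the gene, at 58014952. The gene's other listed start, 57998024, lies at the 5′ end of the span, and no summit lay between the 2 starts. The following stretch is shown because the peak begins in it. It holds genomic bases 21 to 50 counted from the inner start (mm10, chr9:58014972-58015001, plus strand). Exons were not used, so whether all of these bases belong to the transcript is not known. The bases inside the peak are in capitals.
Cyp11a1 inner start: aagtgtGGCTCTGGAGGTTTGGGGCAGAGA

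Star, the cholesterol carrier (NCBI Gene 20845, chromosome 8, 25808474 to 25815982), held 1 weak peak from 25812708 to 25813105. It had 25 IP fragments over a background of 6.18, a fold of 3.62 (2.39 to 5.28). Its summit lay in the middle part of the span, 4339 and 3169 bases from the ends. Of the 12134 peak-carrying protein-coding genes, 94.6% had a higher best peak than Star and 60.7% had a higher one than Cyp11a1. The intervals of the Star peak and of the highest Cyp11a1 peak do not overlap.

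Hsd3b1, a 3β-hydroxysteroid dehydrogenase (NCBI Gene 15492, chromosome 3, 98842356 to 98859794, minus strand), had no peak, and the nearest summit outside its span lay 20628 bases downstream in Gm12428. Cyp19a1, aromatase (NCBI Gene 13075, chromosome 9, 54165937 to 54268164, minus strand), had none in a span of 102.2 kb, the longest of the 10. The nearest summit to it lay 97615 bases downstream in Tnfaip8l3. No peak overlapped any of the 3 Cyp19a1 transcript starts in the set of RefSeq starts used here. Hsd3b1 belongs to a cluster of near-identical genes, and how reads that match several copies were placed is not stated, so its lack of a peak is uncertain.

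**Figure D1:**
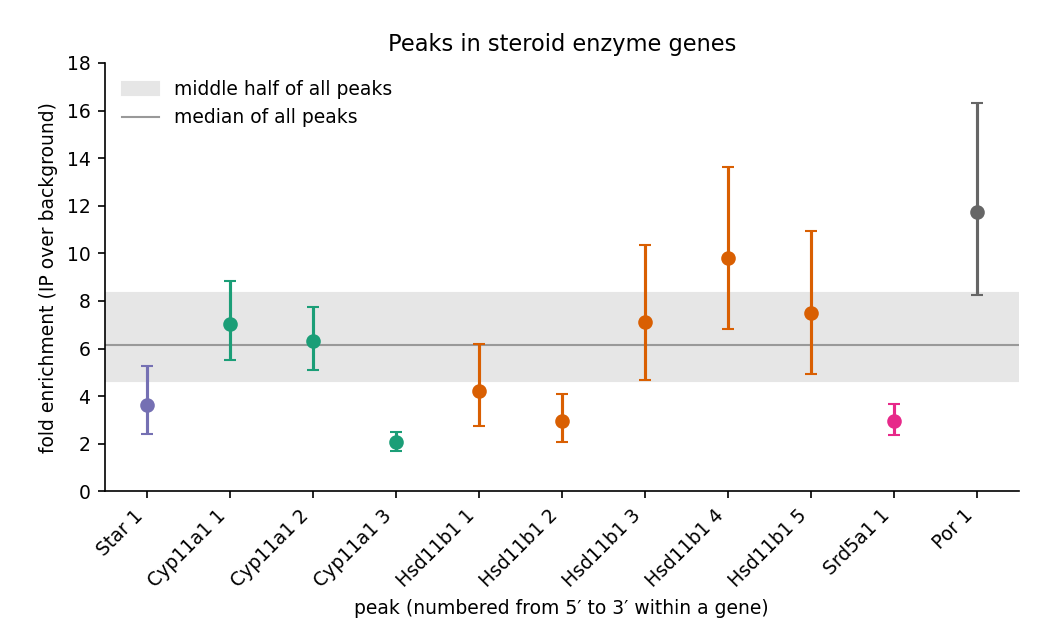
Fold enrichment of each of the 11 peaks (vertical axis, IP over background) in Star, Cyp11a1, Hsd11b1, Srd5a1 and Por, numbered from 5′ to 3′ within a gene, with bars for the exact 95% Poisson interval. The shaded band runs between the quartiles of all 38366 peaks (4.62 and 8.32) with their median (6.16) as a line; Por at 11.8 and Hsd11b1 peak 4 at 9.80 lie above the band, and Cyp11a1 peak 3 at 2.06 is the lowest.

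Of the 2 glucocorticoid enzymes, the activating one held 5 peaks and the inactivating one held none. Hsd11b1 encodes the 11β-hydroxysteroid dehydrogenase that turns inert 11-dehydrocorticosterone back into corticosterone (NCBI Gene 15483, chromosome 1, 193221640 to 193264045, minus strand). From 5′ to 3′, its first peak, 193242027 to 193242377, had 24 IP fragments over a background of 4.94, a fold of 4.21 (2.76 to 6.18). The second, 193240560 to 193240782, had 35 over 11.1, a fold of 2.97 (2.09 to 4.10). These 2 had the lowest folds of the 5.

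The third Hsd11b1 peak, 193236889 to 193237098, had 25 IP fragments over 2.66, a fold of 7.11 (4.70 to 10.4). The fourth, 193233726 to 193233966, had 33 over 2.47, a fold of 9.80 (6.83 to 13.6). The fifth, 193230357 to 193230642, had 25 over 2.47, a fold of 7.49 (4.95 to 10.9). The intervals of these 3 peaks overlap, and that of the fourth lies above the intervals of the first and second. A best peak higher than that of Hsd11b1 was found in 33.2% of peak-carrying protein-coding genes.

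All 5 Hsd11b1 summits lay downstream of a listed transcript start, 193242360, at 170 to 11878 bases from it. Gaps between neighbouring summits were 1592 to 3552 bases. This is the only Hsd11b1 start in the set of RefSeq starts used here, which may be incomplete. The gene span itself begins upstream, at 193264045. None of the summits lay in the part of the span upstream of 193242360, and none in the last 8842 bases. The first peak covers this listed start. The sequence from 250 bases before the start to 30 bases after it (RefSeq, GRCm38.p6, chr1:193242331-193242610, minus strand) is given with the bases inside the peak in capitals, 47 in all, of which the first 17 lie before the listed start.
Hsd11b1 start: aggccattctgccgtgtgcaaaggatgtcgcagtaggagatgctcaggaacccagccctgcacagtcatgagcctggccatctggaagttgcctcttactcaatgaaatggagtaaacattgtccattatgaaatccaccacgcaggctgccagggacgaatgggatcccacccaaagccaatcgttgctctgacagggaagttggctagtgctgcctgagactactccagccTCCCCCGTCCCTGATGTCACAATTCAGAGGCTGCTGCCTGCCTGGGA

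The set of RefSeq starts used here held 11 start windows of 300 bases for 8 of the 10 genes. Each window has 250 bases before the start and 50 after it. Star and Hsd11b2 had none in this set, which need not hold every start of the other genes. Of these windows 2 overlapped a peak, those of Cyp11a1 and Hsd11b1 shown above. Over protein-coding genes, 12.1% of 21263 such windows overlapped a peak. GGACT, a common sequence at m6A sites, stood on the transcript strand in 2 of the 11 windows, 1 each of Cyp19a1 and Srd5a1. Its reverse complement AGTCC stood in 3. The shares over all windows were 26.7% and 26.8%. Most bases of a window lie before its listed start, so a word found there need not be part of the transcript. Neither word stood in the bases of the Cyp11a1 or Hsd11b1 window that lie inside a peak, of which there are 24 and 67.

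Hsd11b2 encodes the opposite enzyme, which oxidises corticosterone to its inert form (NCBI Gene 15484, chromosome 8, 105518746 to 105523988), and had no peak in its span of 5.24 kb, the shortest of the 10. A summit lay 741 bases beyond the high-coordinate end, in the neighbouring Atp6v0d1, which encodes a proton pump subunit. That peak had 79 IP fragments over a background of 20.998, a fold of 3.64 (2.89 to 4.52). The list carries no strand, so which of the 2 transcripts gave those fragments cannot be told apart.

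**Figure D2:**
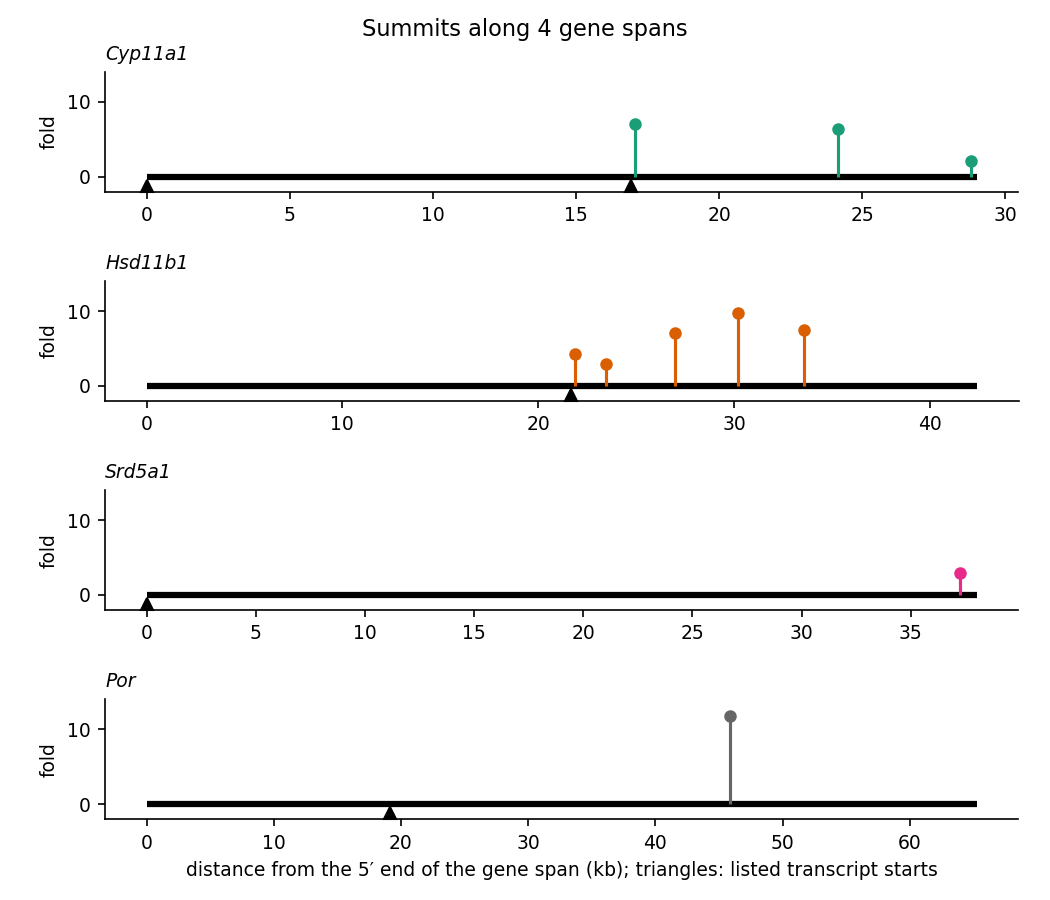
Summits along the spans of Cyp11a1, Hsd11b1, Srd5a1 and Por. The horizontal axis gives the distance from the 5′ end of the span in kb, and the height of each stem gives fold enrichment. Black triangles mark the listed transcript starts, those in the set of RefSeq starts used here. In Cyp11a1 and Hsd11b1 the 5′-most summit stands 149 and 170 bases after a listed start, and the Srd5a1 summit stands at the 3′ end.

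Of the enzymes that inactivate or convert progestins and sex steroids, Srd5a1 had a peak, and Akr1c18 and Hsd17b11 had none. Srd5a1, steroid 5α-reductase 1 (NCBI Gene 78925, chromosome 13, 69573449 to 69611485, minus strand), reduces progesterone and testosterone. Its peak, 69573943 to 69574405, had 79 IP fragments over a background of 25.9, a fold of 2.97 (2.36 to 3.69). Both numbers are high for this list: 89.5% of peaks had no more fragments and 97.5% had no higher background. The fold is low, and 97.6% of peak-carrying protein-coding genes had a higher best peak. The summit lay 784 bases from the 3′ end of the span. Another summit, of 6.50-fold, lay 698 bases upstream of the span in Nsun2, an RNA methyltransferase gene.

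Akr1c18 encodes 20α-hydroxysteroid dehydrogenase, which converts progesterone into a form with little activity (NCBI Gene 105349, chromosome 13, 4132615 to 4150646, minus strand). The nearest summit lay 61842 bases downstream in its relative Akr1c14, with 8 IP fragments over the genome-wide background of 0.462. Akr1c genes also form a cluster of similar copies, and the same uncertainty about reads holds. Hsd17b11 encodes a lipid-droplet dehydrogenase that oxidises 17β-hydroxysteroids (NCBI Gene 114664, chromosome 5, 103989765 to 104021796, minus strand). A summit lay 2681 bases upstream of it, in no annotated gene, with 12 fragments over 0.543, a fold of 8.42 (4.67 to 14.2).

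Por held the most enriched peak of the 10 genes. It encodes cytochrome P450 oxidoreductase, which passes electrons to the P450 enzymes of the endoplasmic reticulum, aromatase among them (NCBI Gene 18984, chromosome 5, 135670040 to 135735326, plus strand). The peak, 135715817 to 135716029, had 34 IP fragments over a background of 1.98, a fold of 11.8 (8.25 to 16.3). Its summit lay 45894 bases from the 5′ end of the span. That is 26789 bases downstream of 135689145, the only Por start in the set used here. This start itself lies inside the span, which begins at 135670040, so the set may lack a start. A higher best peak was found in 19.97% of peak-carrying protein-coding genes. The interval of the Por peak overlaps those of the first Cyp11a1 peak and of Hsd11b1 peaks 3, 4 and 5. Their differences were not tested, so the rank of Por rests on the fold values alone. A summit of 4.99-fold (3.62 to 6.73) lay 239 bases beyond the 3′ end of Por, in Tmem120a, and again the transcripts cannot be told apart.

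Among the peaks of 1 gene, the background varied more than the IP fragments. In Cyp11a1 the fragments differed 1.39-fold between the lowest and highest summit, the background 5.13-fold and the enrichment 3.41-fold. In Hsd11b1 these ratios were 1.46, 4.50 and 3.30. In both genes the peak of lowest fold had the most IP fragments and the highest background. In neither gene did the order by fold follow the order by IP fragments. Fragments at the 3 Cyp11a1 summits, 71 to 99, were more numerous than at the 5 Hsd11b1 summits, 24 to 35, although their highest folds had overlapping intervals. Over the 11 peaks the median background was 6.18 and the median fold 6.31, beside 3.33 and 6.16 over all peaks, and the median width was 254 bases beside 333.

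**Figure D3:**
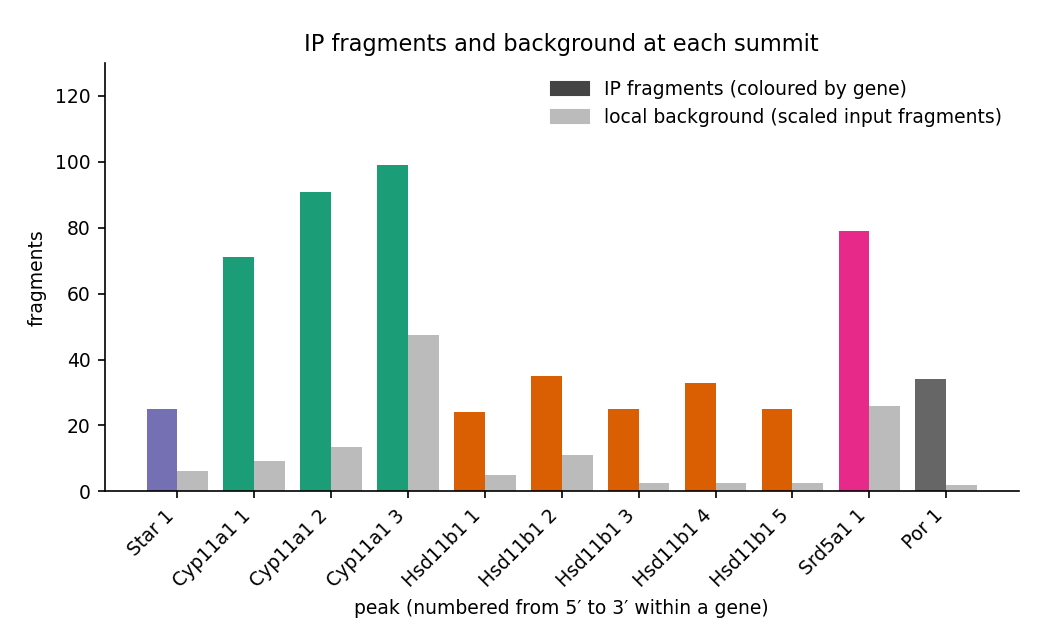
IP fragments (coloured bars) and local background in scaled input fragments (grey bars) at the summit of each of the 11 peaks, numbered from 5′ to 3′ within a gene. The Cyp11a1 background climbs from 9.26 to 47.6 along the gene while its IP fragments run from 71 to 99, and the Por summit has 34 fragments over 1.98.

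Positions along the gene were compared with those of other peaks in the list. Among the 10 peaks in genes with a listed strand, 2 summits (Cyp11a1 and Srd5a1) lay within 1000 bases of the 3′ end of the span, where 15.5% of 24195 peaks in single protein-coding genes lay. The median position was 70.7% of the way from the 5′ to the 3′ end, and 71.5% over those peaks. At least 3 peaks were found in 2 of the 10 genes and in 22.6% of protein-coding genes. A best peak of 4-fold or more was found in 3 of the 10, Cyp11a1, Hsd11b1 and Por, and in 51.5% of protein-coding genes. The median best peak of the 5 peak-carrying genes was 7.02-fold, beside 8.04-fold over all peak-carrying protein-coding genes.

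Genes that supply cholesterol, electrons or transcriptional control to these enzymes carried peaks in 12 of 16 cases. All 12 had a best peak of 4-fold or more. Over all protein-coding genes, 55.7% had a peak and 51.5% had one of 4-fold or more. The exact 95% binomial interval of 12 of 16, from 47.6% to 92.7%, holds both of these shares. H6pd, which makes the NADPH that Hsd11b1 uses inside the endoplasmic reticulum, held 6 peaks with a best of 18.4-fold (12.7 to 25.8). Nr5a2, a nuclear receptor that drives steroidogenic genes, reached 15.0-fold (10.1 to 21.6), and Cyb5a, cytochrome b5, reached 11.8-fold (9.21 to 14.9). The best H6pd and Nr5a2 peaks had 31 and 27 IP fragments over backgrounds of 0.741 and 0.865. Both backgrounds are below the median of 3.33 over all peaks, while Cyb5a had 69 fragments over 4.94. The mitochondrial electron chain of Cyp11a1 carried peaks in both parts, with 9.43-fold in Fdxr and 6.54-fold in Fdx1. Tspo, Soat1, Nr5a1 and Nr0b1 had none. Fdxr, Fdx1 and the 4 genes without a peak were chosen for naming once their values were known. The median best peak of the 12 was 6.996-fold.

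Of 18 other synthesis enzymes reported here, 7 had a peak, led by Lss at 9.68-fold (6.59 to 13.8), Sqle at 7.13-fold (5.68 to 8.84) and Dhcr7 at 6.27-fold (4.59 to 8.37). These 3 act in cholesterol synthesis. All 4 cholesterol-forming enzymes among the 18, which include Cyp51 at 3.91-fold, had a peak, and 3 of the other 14 had one, Cyp11b1, Hsd3b7 and Hsd17b12, at 5.87-fold to 6.18-fold. Over all protein-coding genes the share was 55.7%, and this split was made with the values known. The best Cyp11b1 summit also lay in Gml2. The 11 without a peak include Cyp17a1, which makes androgens, and Hsd3b6, a 3β-hydroxysteroid dehydrogenase known from mouse trophoblast. Cyp51, the 3 genes at 5.87-fold to 6.18-fold, Gml2, Cyp17a1 and Hsd3b6 were picked for mention with their values in view. Sts was not analysed here.

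Of 20 other enzymes of inactivation and conjugation, 7 had a peak, led by Cyp1a1 at 7.36-fold (4.63 to 11.2), Akr1c14 at 6.16-fold (3.05 to 11.5) and Cyp1b1 at 5.63-fold (3.62 to 8.39). Cyp1a1 and Cyp1b1 hydroxylate estrogens. The 13 without a peak include Hsd17b2, which inactivates estradiol, and the estrogen sulfotransferase Sult1e1, both likewise picked. Shares of 75% (12 of 16), 38.9% (7 of 18) and 35% (7 of 20) stand beside 55.7% of all protein-coding genes. The lists were chosen with earlier results known and some hold similar gene copies, so these shares were not tested against that value.

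**Figure D4:**
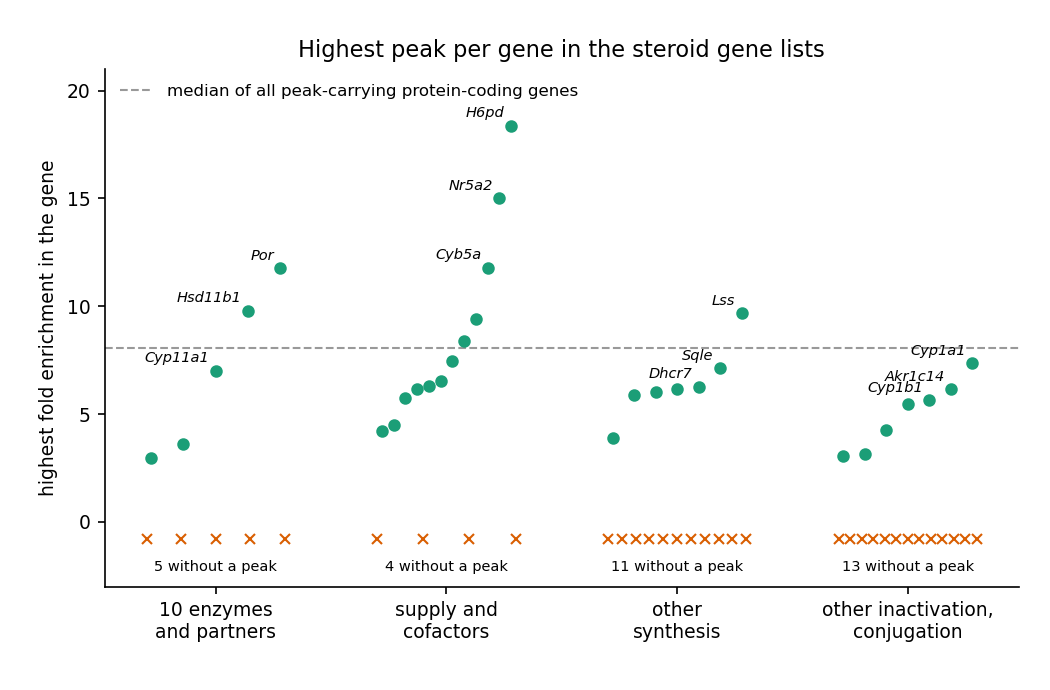
Highest fold enrichment per gene (vertical axis) for the 10 genes and the 3 wider lists, 1 dot a gene, with the 3 highest named; crosses below the axis zero stand for genes without a peak and carry no value. Dots above the dashed line, the 8.04-fold median of all peak-carrying protein-coding genes, number 2 in the 10 genes, and H6pd at 18.4-fold is the highest.

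Peaks were present in all 5 listed markers each of smooth muscle, stroma and epithelium, and in 4 of 5 of macrophages, beside 55.7% of all protein-coding genes. Genes listed as markers of ovary and of trophoblast were also counted, and whether the uterine wall itself expresses them was not tested. Of 7 ovarian markers, Foxl2 (32.0-fold), Inha (9.72-fold) and Insl3 (8.63-fold, at a summit in 2 genes) had a peak, and Fshr, Lhcgr, Amh and Nr5a1 had none. Of 7 trophoblast markers, Tfap2c (17.5-fold) and Hand1 (13.0-fold) had one, and Prl3d1, Prl2c2, Tpbpa, Ascl2 and Elf5 had none. The markers named were picked with their values in view. In bulk tissue the cells that held a methylated transcript are not known, fewer cells of a type and less RNA per cell cannot be told apart, and the part of ovarian or trophoblast RNA in the Cyp11a1 and Star peaks was not tested.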

How the data were processed

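Libraries were prepared with a kit that keeps strand, per the labels' protocols, and the submitters' processing notes name HISAT2 2.2.1, MACS3 3.0.0a7 and the build mm10 without settings. The deposited peak list gives positions counted from 0 (printed here from 1), the fold enrichment as a ratio, the −log10 p-value and −log10 q-value at the summit, and a display score that was not used; the authors' values only describe peaks within this list. It carries no strand. IP fragments k and the background at each summit were solved from 2 deposited values: the fold, taken as k plus 1 over background plus 1, and the −log10 p-value, taken as that of a Poisson upper tail above k. The solution matched the deposited −log10 p-value to 0.001 at 100% of peaks, with 1 possible k at each of the 11 peaks. Adding 1 to both terms lowers the fold at thin coverage. In data simulated with these same formulas, 100% of 1999 pileups were recovered. This checks the solving step only, and cannot show whether the deposited values follow the formulas.

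Gene spans are those of RefSeq on GRCm38.p6 (the mm10 assembly), without 365 rows off the assembled chromosomes, which left 49632 genes. Strand, transcript starts and sequences came from RefSeq start windows, which matched 8 of the 10 genes. Overlapping windows on opposite strands were reverse complements in 1911 of 1911 cases. Hsd17b8 was matched by its synonym, as H2-Ke6. No genome sequence or exons were used, so planned results on motifs at summits and transcript regions were not run. Named genes are the 10 genes, the 3 highest genes of each wider list, genes with or without a peak where these are at most 3, and other genes that share a summit of the 10 genes, of which there were none; genes at the nearest outside summit are named as locations, and the text says where others were picked with values known. Some genes of the wider synthesis list are not reported here and were left out of its counts. The 10 genes and all lists were chosen with earlier results of these data known. Results were recomputed with peaks limited to a −log10 q of 5 or more or to a fold of 4 or more, with other overlaps, with single-gene summits, with merged intervals and, added after the data were seen, with longer spans. The tools were Python 3.11.15 with pandas 2.3.3, numpy 2.4.6, matplotlib 3.10.9 and scipy 1.17.1.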

Additional observations from a re-analysis of the deposited data

How the results depend on the processing

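Across 6 other settings and 2 more added after the data were seen, 39 of 42 recomputed values stayed close to those reported, meaning within 1.5 times for a count and, for the median best peak, within the Poisson interval of the peak that gives it (5.50 to 8.82). The other 3 came from keeping peaks of at least 4-fold. This left 3 genes with a peak (Cyp11a1, Hsd11b1 and Por), 7 peaks, and a median best peak of 9.80-fold. Star and Srd5a1 were lost because their single peaks are weaker than that. Merging entries of the same interval removed 0 peaks. Extending gene spans by 1000 bases gave 6 genes and 14 peaks by adding Hsd11b2, and by 3000 bases 7 genes and 15 peaks by adding Hsd17b11, but the Hsd11b2, Por and Srd5a1 additions lie in neighbouring genes. With 1 library per group no replicate could be left out. No paired analysis was possible because the groups hold 1 library each and the labels give no replicate numbers.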

Other observations

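Enzyme families whose names the members share were counted by gene symbol, with the values already known. Of 8 Akr1c genes 1 had a peak, Akr1c14, which is known to reduce 3-keto steroids. Of 7 Hsd3b genes 1 had a peak, Hsd3b7, which acts in bile acid synthesis. Of 11 Hsd17b genes 2 had a peak, Hsd17b12 at 5.87-fold and Hsd17b4 at 4.28-fold, which act mainly on fatty acids. Hsd17b8, listed as H2-Ke6 and so outside this count by symbol, also had a peak, of 3.12-fold. Of 3 Srd5a genes Srd5a1 had a peak, and Srd5a2 and Srd5a3 had none. The share over all protein-coding genes was 55.7%. Similar gene copies can share reads, and the handling of such reads is not stated.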
